A study of Homo sapiens with 12 samples.

Results

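The genes described here are OAS1, OAS2, OAS3 and OASL, the 4 members of the human 2′-5′-oligoadenylate synthetase family, taken by symbol from the 61552 genes in each deposited count table. Their mRNA was sequenced in HCC38 and in MDA-MB-231. These are established lines from human breast cancers, classed as triple-negative because they lack the oestrogen and progesterone receptors and amplified HER2. Both lines are labelled wild type, and each was sequenced untreated and after 48 h with 400 IU/mL interferon-β (IFN-β), with 3 libraries labelled as biological replicates in each of the 4 groups. The growth medium was RPMI-1640 for HCC38 and low-glucose DMEM for MDA-MB-231, so a difference between the lines cannot be told apart from a difference between the media. The comparisons ask how far IFN-β changed each gene in each line, whether the change differed between the lines, and how the lines differed at each treatment.

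OAS enzymes are part of the antiviral response to double-stranded RNA. On binding it, the catalytic members join ATP into 2′-5′-linked oligoadenylates (2-5A), which activate RNase L, an endonuclease that cuts viral and cellular RNA and halts translation. Type I interferon acts through the IFNAR1-IFNAR2 receptor, the kinases JAK1 and TYK2, and the transcription factor complex ISGF3, which binds interferon-stimulated response elements in the promoters of genes such as these. OASL keeps the synthetase fold and carries ubiquitin-like domains, but makes no 2-5A in humans.

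In the GRCh38 coordinates of the deposited FPKM tables, 3 of the genes stand side by side on the plus strand of chromosome 12. OAS1 (ENSG00000089127) spans 112905856 to 112933219, OAS3 (ENSG00000111331) 112938051 to 112976460 and OAS2 (ENSG00000111335) 112978395 to 113011723. OASL (ENSG00000135114) lies apart on the minus strand of the same chromosome, at 121017763 to 121039242. In the GENCODE 29 models the longest coding transcript has 6 exons and 1242 coding bases for OAS1, and 12 exons and 2178 coding bases for OAS2. It has 16 exons and 3261 coding bases for OAS3, and 6 exons and 1542 coding bases for OASL, so the OAS3 reading frame is 2.63 times as long as that of OAS1. The coding sequences of OAS1 and OAS3 matched at 68.2% of 852 aligned columns, those of OAS2 and OAS3 at 66.7% of 909, and those of OAS1 and OAS2 at 66.5% of 552. With OASL the aligned stretches were shorter: 95 columns for OAS1 (76.8% identity), 106 for OAS2 (69.8%) and 237 for OAS3 (68.4%). Each alignment is the best-scoring local stretch of bases for its pair and need not be the full extent of their likeness.

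RefSeq promoter windows (GRCh38.p14, 250 bases before to 50 bases after the start) matched 2 of the 4 genes, OAS1 and OAS3. Both hold closely spaced GAAA repeats, the half-sites of an interferon-stimulated response element, and these stretches are printed because the 2 genes rose together in the results that follow. Each line gives 30 bases of the plus strand, 5′ to 3′, with the repeats in capitals.
OAS1 chr12:112906934-112906963: tcccttctgagGAAACGAAAccaacagcag
OAS3 chr12:112938318-112938347: gctagaaaGAAACGAAACTGAAAgcaggga
OAS3 chr12:112938452-112938481: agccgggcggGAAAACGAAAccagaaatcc

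Searched on both strands, the element core GAAANNGAAA occurred 143 and 12 bases before the OAS3 start and was not found in the OAS1 window. The closer spacing GAAANGAAA, a search added after the windows had been read, occurred 17 bases before the OAS1 start and 148 bases before the OAS3 start, where it overlaps the core. Of all 35116 promoter windows of 300 bases, 3.57% held GAAANNGAAA, 3.12% held GAAANGAAA and 6.40% held either. Of 19 other antiviral effector genes with a window, 16 held GAAANNGAAA and 17 held either spacing, against 0 and 1 of 6 reference genes. The gene lists were chosen with earlier results of these data known, so these counts describe the lists only. In the other lists used below, either spacing was less frequent. It was found for 5 of 12 double-stranded RNA genes, 1 of 8 interferon receptor and ISGF3 genes and 0 of 3 genes acting on 2-5A or RNase L. The STAT dimer motif TTCNNNGAA occurred 168 bases before the OAS1 start and in 7.66% of all windows, and was not found in the OAS3 window. By the GENCODE 29 models, which start further upstream, both OAS1 matches and the OAS3 match 12 bases before the RefSeq start lie in an annotated exon, and the other OAS3 matches do not. All of them lie within the loci of the deposited FPKM tables. These are letter matches only, and binding was not measured.

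The libraries held 26660038 to 43588773 counts in genes, and 21599 to 24247 genes had at least 1 count. ESR1 and PGR, the steroid receptor genes, were at or below 0.0479 CPM (counts scaled to a common library depth) on average in every group, and ERBB2, the gene of HER2, was at 163 CPM in untreated HCC38 and 63.3 CPM in untreated MDA-MB-231. The epithelial genes CDH1, EPCAM and KRT19 were at 140, 212 and 308 CPM in untreated HCC38. In untreated MDA-MB-231 they were at 0.0242, 2.57 and 0.427 CPM. The epithelial keratins KRT8 and KRT18 differed less, at 954 and 638 CPM in untreated HCC38 and 442 and 338 CPM in untreated MDA-MB-231. VIM, a mesenchymal filament, was at 1045 CPM in untreated HCC38 and 2942 CPM in untreated MDA-MB-231. A list of 7 leukocyte and endothelial markers summed to 5.79 to 6.82 CPM per library in HCC38 and to 1.16 to 3.84 CPM in MDA-MB-231, with 1 or 2 of the 7 at 0 in each group. In MDA-MB-231 the libraries carry the numbers 1, 2, 4 and 5 in the deposited names. Numbers 1 and 2 (untreated replicates 1 and 2, treated replicate 1) and numbers 4 and 5 (untreated replicate 3, treated replicates 2 and 3) are treated below as a first and a second set, and what the numbers stand for is not given in the sources used here.

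IFN-β raised all 4 genes in both lines, and the libraries with and without it did not overlap for any of them. The share of all tested genes without such an overlap was not counted, so the lack of overlap has no background here. In HCC38 the 4 were called higher, where 2.39% of the 18121 genes tested were called higher and 1.25% lower. In MDA-MB-231 the 4 were again called higher, where 6.46% of all tested genes were and 6.08% were called lower. The median log2 fold change over all tested genes was near 0 in both (-0.0040 in HCC38 and 0.0034 in MDA-MB-231). A gene was called at an adjusted p under 0.05 in edgeR's quasi-likelihood test, with p-values adjusted over all tested genes by Benjamini-Hochberg. CPM here is scaled by the TMM method. In bulk RNA, more cells responding and more RNA per cell cannot be told apart.

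**Figure D1:**
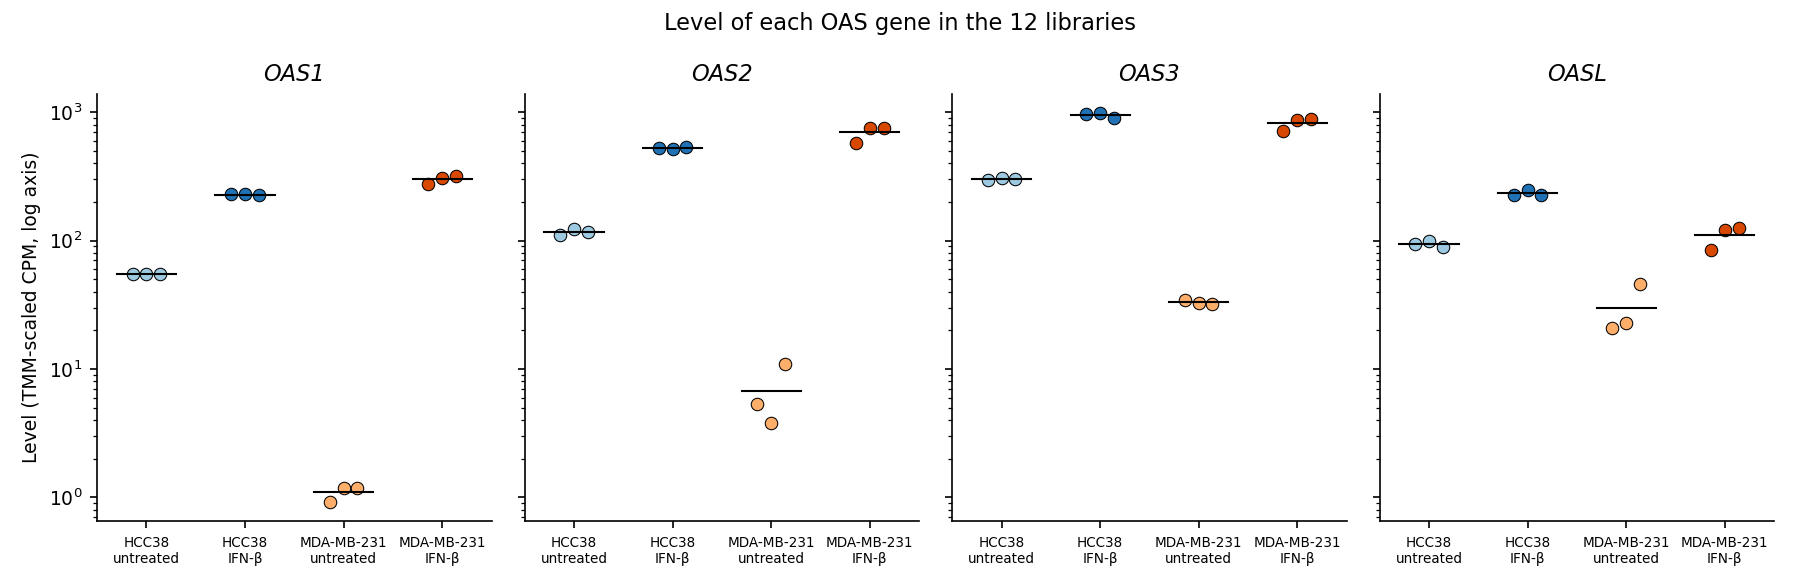
Level of each OAS gene (TMM-scaled CPM, log axis) in the 12 libraries by group, with points for libraries and a bar for the mean of 3. OAS1 sits near 1 CPM in untreated MDA-MB-231 and at 274 to 321 CPM after IFN-β, while OASL in treated MDA-MB-231 (85.2 to 126 CPM) overlaps OASL in untreated HCC38 (89.3 to 99.1 CPM).

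OAS1 is the shortest catalytic member, with a single synthetase unit. In HCC38 its level was 55.1, 55.1 and 54.8 CPM in the untreated libraries and 230.4, 229 and 225 CPM after IFN-β. The replicates of each group lay close together and the groups far apart, with a log2 fold change of 2.05 ± 0.08 (SE; adjusted p = 1.85e-09), a 4.14-fold rise. In MDA-MB-231 the untreated libraries held 0.928, 1.19 and 1.19 CPM, from 26, 40 and 49 counts, and the treated ones 274, 308 and 321 CPM. OAS1 was thus represented by few reads before treatment in this line, and its log2 fold change of 8.07 ± 0.11 (adjusted p = 1.22e-15) placed it at rank 4 of the 18121 genes tested. The 269-fold rise rests on those 26 to 49 counts.

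OAS2, a larger, membrane-associated synthetase with a pair of synthetase units, had 111, 122 and 116 CPM in untreated HCC38 and 526, 519 and 537 CPM after IFN-β. That is a log2 fold change of 2.18 ± 0.23 (adjusted p = 5.12e-05), or 4.52-fold. Each SE comes from 1 fit over all 12 libraries, so it is not the spread of HCC38 alone. The SD of OAS2 was 4.85% and 1.68% of the mean CPM in untreated and treated HCC38, and 56.6% in untreated MDA-MB-231. In MDA-MB-231 OAS2 had 5.35, 3.78 and 11 CPM untreated and 577, 756 and 753 CPM treated. The groups were far apart, but the untreated libraries differed among themselves by 2.91 times, with replicate 3 the highest. The log2 fold change was 6.67 ± 0.29 (adjusted p = 8.99e-10), rank 14 of all tested genes, and 7.26 (adjusted p = 9.55e-14) without untreated replicate 3.

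OAS3 has the longest reading frame of the 4, with several synthetase units in a row, and is known for its affinity for long double-stranded RNA. Its libraries held 298, 306 and 302 CPM in untreated HCC38 and 964, 986 and 907 CPM after IFN-β. This 3.15-fold rise was a log2 fold change of 1.66 ± 0.09 (adjusted p = 4.35e-08). In MDA-MB-231 OAS3 rose from 34.7, 32.4 and 32.2 CPM to 710, 865 and 885 CPM. The untreated libraries were alike, treated replicate 1 was the lowest of its group, and the log2 fold change was 4.63 ± 0.10 (adjusted p = 1.89e-13), or 24.8-fold.

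OASL, the member without synthetase activity, is known to enhance RIG-I signalling and to restrain cGAS. It had 93.9, 99.1 and 89.3 CPM in untreated HCC38 and 225, 247 and 227 CPM after IFN-β. The rise was 2.47-fold, the smallest of the 4 in this line, with a log2 fold change of 1.31 ± 0.23 (adjusted p = 0.00414). This SE, too, takes in the MDA-MB-231 libraries. The SD of OASL was 5.21% and 5.28% of the mean CPM in untreated and treated HCC38, and 46.9% in untreated MDA-MB-231. In MDA-MB-231 OASL had 20.8, 22.9 and 46.1 CPM untreated and 85.2, 122 and 126 CPM treated. Untreated replicate 3 held more than the other two together, yet stayed below every treated library. The log2 fold change of 1.89 ± 0.23 (adjusted p = 0.000102), or 3.70-fold, put OASL at rank 411 of the tested genes, against ranks 4, 14 and 26 for OAS1, OAS2 and OAS3.

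The response of the 3 catalytic members was larger in MDA-MB-231 than in HCC38, and that of OASL was not shown to differ. The difference of the log2 fold changes (MDA-MB-231 minus HCC38) was called for 3 of the 4 genes, all as higher, where 1.99% of the tested genes were called higher and 1.52% lower. It was 6.02 ± 0.13 for OAS1 (adjusted p = 1.51e-12), 4.49 ± 0.34 for OAS2 (adjusted p = 2.09e-06) and 2.97 ± 0.12 for OAS3 (adjusted p = 1.7e-09). For OASL it was 0.58 ± 0.32 (adjusted p = 0.353), a value that turned on untreated MDA-MB-231 replicate 3. Without that library the OASL difference was 1.03 (adjusted p = 0.00338), with the MDA-MB-231 libraries of the first set alone 0.65 (adjusted p = 0.0032), and with those of the second set alone 0.11 (adjusted p = 0.609).

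**Figure D2:**
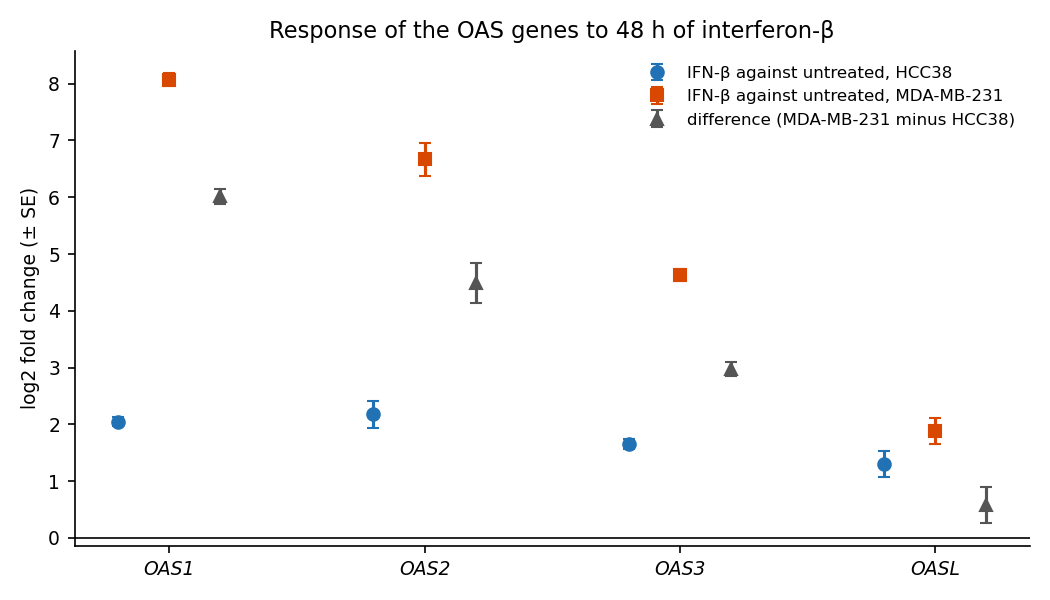
Log2 fold change of each OAS gene with IFN-β in HCC38 (circles) and MDA-MB-231 (squares), and the difference between the lines (triangles); error bars are standard errors of the edgeR fit over 12 libraries. The HCC38 values lie between 1.31 and 2.18, while those of MDA-MB-231 fall from 8.07 for OAS1 to 1.89 for OASL.

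Before treatment, MDA-MB-231 had less of all 4 transcripts than HCC38. All 4 were called lower, in a comparison where 39.0% of the tested genes were called lower, 36.4% higher and so 75.5% in either direction. The log2 difference was -5.62 ± 0.11 for OAS1 (adjusted p = 8.15e-15), -4.09 ± 0.27 for OAS2 (adjusted p = 2.81e-09) and -3.19 ± 0.09 for OAS3 (adjusted p = 4.92e-13). OASL differed least, by -1.65 ± 0.23 (adjusted p = 1.34e-05), and its untreated libraries did not overlap between the lines (89.3 to 99.1 CPM against 20.8 to 46.1 CPM). Leaving out untreated MDA-MB-231 replicate 3 moved the OAS2 difference to -4.68 and that of OASL to -2.10, and with the second MDA-MB-231 set alone they were -3.39 and -1.02, all still called.

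After treatment, the mean CPM of each of the 3 catalytic members differed by no more than 1.32-fold between the lines, and OASL was lower in MDA-MB-231. Of the 4 genes 3 were called, in a comparison where 74.9% of all tested genes were, 36.7% as higher and 38.2% as lower. OAS1 was higher in MDA-MB-231 by 0.40 ± 0.08 on the log2 scale (adjusted p = 0.000216), with 274 to 321 CPM against 225 to 230.4 CPM. OASL was lower by a log2 difference of -1.07 ± 0.22 (adjusted p = 0.000564), and its treated MDA-MB-231 libraries (85.2 to 126 CPM) overlapped its untreated HCC38 libraries. None of the other three genes had such an overlap. The remaining pair depended on the setting. OAS3 was at 710 to 885 CPM against 907 to 986 CPM, a log2 difference of -0.22 ± 0.08 (adjusted p = 0.0314), which became -0.12 (adjusted p = 0.144) without treated MDA-MB-231 replicate 1 and -0.083 (adjusted p = 0.468) on log2(FPKM + 1). It also lost its call without treated HCC38 replicate 1 (-0.23, adjusted p = 0.0578) or replicate 2 (-0.19, adjusted p = 0.0872). OAS2 was at 577 to 756 CPM against 519 to 537 CPM, a log2 difference of 0.40 ± 0.22 that did not pass (adjusted p = 0.12). It passed without untreated MDA-MB-231 replicate 3 (0.40, adjusted p = 0.0023), without untreated replicate 2 (0.40, adjusted p = 0.0427) or without treated MDA-MB-231 replicate 1 (0.52, adjusted p = 0.0489).

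Within each MDA-MB-231 set, every gene was higher in the treated than in the untreated libraries. The treated-to-untreated ratio of mean CPM was 258 in the first set and 265 in the second for OAS1, and 21.2 and 27.2 for OAS3. For OAS2 it was 126 and 68.4, with untreated means of 4.57 and 11 CPM, and for OASL 3.9 and 2.7, with untreated means of 21.9 and 46.1 CPM. The single untreated library of the second set was above both untreated libraries of the first for OAS2 and OASL, between them for OAS1 (1.19 CPM) and below both for OAS3 (32.2 CPM). Treated replicate 1, the only treated library of the first set, was the lowest treated library for all 4 genes. What separates the sets was not tested.

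FPKM values, which the authors scaled per kilobase of transcript, allow the 4 genes to be set side by side, subject to the lengths used. The summed FPKM of the 4 genes was 173 ± 5.14 (SD, n = 3) in untreated HCC38 and 584 ± 22.3 after IFN-β. In MDA-MB-231 it went from 25.8 ± 7.11 to 606 ± 68.6 FPKM. The treated sums overlapped between the lines (571 to 610 FPKM in HCC38, 527 to 652 FPKM in MDA-MB-231), whereas the untreated sums, 168 to 177 and 21.2 to 34.0 FPKM, did not.

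The order of the 4 transcripts turned over with treatment in MDA-MB-231. Untreated, OASL was the most abundant at 17.4 ± 6.39 FPKM, followed by OAS3 at 5.51 ± 0.382, OAS2 at 2.12 ± 1.19 and OAS1 at 0.741 ± 0.173 FPKM. The libraries' values did not overlap between neighbours in this order. The authors' FPKM intervals of OAS1 and OAS2 did overlap in untreated replicate 1 (0 to 1.61 and 1.30 to 2.39). They also did in replicate 2 (0.0227 to 1.84 and 0.731 to 1.46), but not in replicate 3 (0.084 to 1.30 and 2.89 to 3.96). After IFN-β, OAS1 was highest at 216 ± 16.8 FPKM, followed by OAS2 at 190 ± 21.7, OAS3 at 131 ± 17.4 and OASL at 67.9 ± 13.6 FPKM. The ranges of OAS1 (198 to 231) and OAS2 (165 to 205) overlapped, although OAS1 was the higher in each of the 3 libraries. In untreated HCC38 the order was also led by OASL, at 59.8 ± 4.66 FPKM, then OAS3 at 45.1 ± 0.849, OAS1 at 38.6 ± 0.651 and OAS2 at 29.9 ± 1.03 FPKM, again without overlap. In treated HCC38 OAS1 led at 167 ± 3.60 FPKM, and OASL (147 ± 11.6), OAS3 (139 ± 7.57) and OAS2 (131 ± 1.80 FPKM) followed with ranges that overlapped from one to the next. The place of OASL in these orders rests on the length used for its FPKM, which was not tested. OASL had 1.54 to 1.87 CPM per FPKM and OAS1 1.28 to 1.72, although their longest coding transcripts have 3266 and 1684 bases. By mean CPM, which is not scaled by length, OAS3 was above OASL in untreated HCC38 (302 against 94.1) and MDA-MB-231 (33.1 against 29.9). In untreated MDA-MB-231 replicate 3, OASL was the higher (46.1 against 32.2 CPM).

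As a share of the summed FPKM, OASL gave way to OAS1 and OAS2. In MDA-MB-231 the OASL share was 60.6%, 66.1% and 72.8% in the untreated libraries and 9.91%, 11.8% and 11.7% in the treated ones. The mean change was -55.3 percentage points, and the groups did not overlap. With CPM in place of FPKM, which is not scaled by length, it was -35.1 points. The OAS1 share went from 2.83%, 4.21% and 2.03% to 37.6%, 34.4% and 35.4%, a mean change of 32.8 points that was 14.1 points on CPM. The OAS2 share went from a mean of 7.92% to 31.4%. OAS3 had 22.6% ± 6.64 (SD, n = 3) untreated and 21.6% ± 0.461 treated, a change of -0.942 points that became 1.70 without untreated replicate 1, 0.147 without untreated replicate 2 and -5.89 on CPM. In HCC38 the changes were smaller for OASL, OAS1 and OAS2, with OASL going from 34.5% to 25.2%, OAS1 from 22.3% to 28.6%, OAS2 from 17.2% to 22.5% and OAS3 from 26% to 23.7%. On CPM the HCC38 changes were -4.57 points for OASL, 2.05 for OAS1 and -4.13 for OAS3, in place of -9.30, 6.33 and -2.30. The exact two-sided permutation test of 3 against 3 libraries gave p = 0.1, the smallest it can give, for each share in each line except OAS3 in MDA-MB-231 (p = 0.9), so no share could pass 0.05 on its own.

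**Figure D3:**
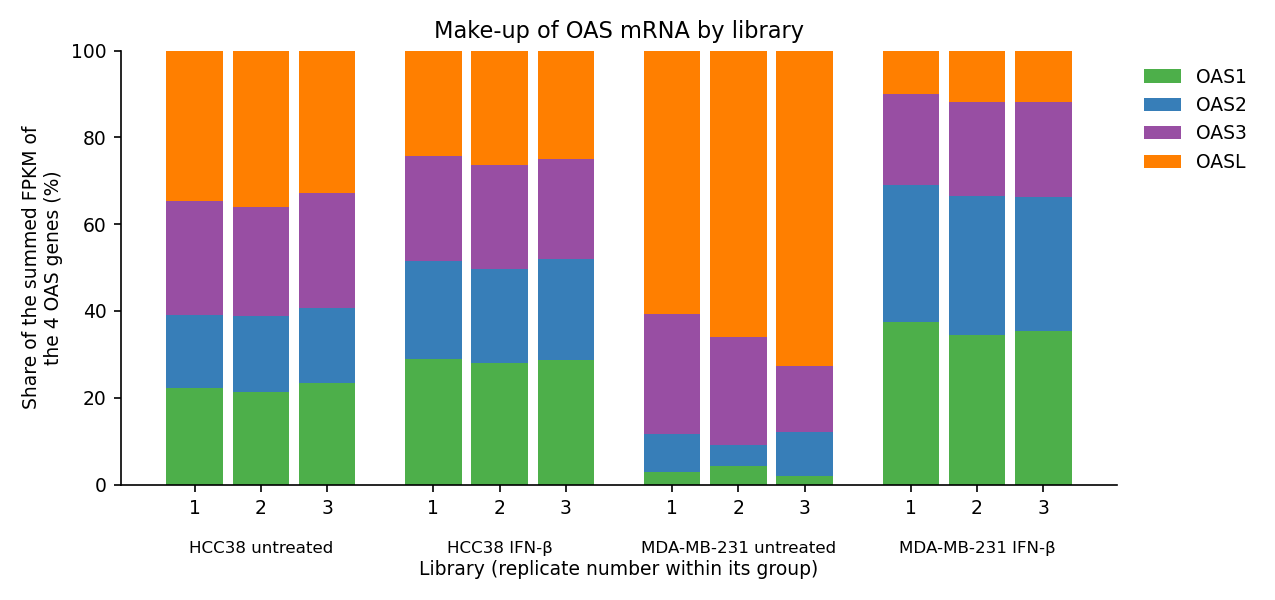
Share of each OAS gene (%) in the summed FPKM of the 4 genes, 1 stacked bar per library in the 4 groups. The OASL part fills 60.6% to 72.8% of the untreated MDA-MB-231 bars and 9.91% to 11.8% of the treated ones, and 32.7% to 36.0% against 24.4% to 26.3% in HCC38.

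The same shift was followed in the 6 pairwise CPM ratios, where library scaling cancels. Each ratio was tested by exact permutation of the treatment within each line, over 400 labelings, on the sum of the changes in both lines. This test was chosen after seeing the data, and the ratios share genes and so are not independent of each other. The largest sum was for OAS1 over OASL, which changed by 0.74 on the log2 scale in HCC38 and 6.13 in MDA-MB-231. OAS2 over OASL changed by 0.87, the largest change in HCC38, and by 4.86 in MDA-MB-231. OAS3 over OASL changed by 0.35 and 2.66. OAS1 over OAS3 changed by 0.39 and 3.47, and OAS2 over OAS3 by 0.52 and 2.2. Each of these 5 ratios had p = 0.005 by the exact permutation, the smallest the labelings can give (adjusted p = 0.006 over the 6 ratios). MDA-MB-231 contributes most of each sum, and within HCC38 alone each of the 6 ratios had p = 0.1 by exact permutation, the smallest that 3 against 3 libraries can give. OAS1 over OAS2 changed by -0.13 in HCC38 and 1.27 in MDA-MB-231 and did not pass (p = 0.105 by the same exact permutation).

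No listed gene that acts on 2-5A or on RNase L was called higher. Over all tested genes 2.39% were in HCC38 and 6.46% in MDA-MB-231, so 0 among 3 genes is near those shares. Of the 3 on the list, none was called in HCC38 and 1 was called in MDA-MB-231, as lower, against 3.64% and 12.5% of all tested genes called in either direction. ABCE1, which inhibits RNase L, was at 223 ± 18.8 and 237 ± 17.7 CPM without and with IFN-β in HCC38 (adjusted p = 0.753). In MDA-MB-231 it was at 263 ± 40.7 and 199.6 ± 8.70 CPM, a log2 fold change of -0.40 ± 0.10 (adjusted p = 0.0214). PDE12, a phosphodiesterase that degrades 2-5A, was at 42.9 and 43.5 CPM in HCC38 and at 87.6 and 78.5 CPM in MDA-MB-231. AKAP7, which has a 2-5A-degrading domain, was at 15 and 14.1 CPM and at 6.96 and 6.56 CPM, and neither gene passed the test in either line.

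Other proteins that sense or act on double-stranded RNA rose in part. Of 16 listed genes 15 were tested, and 7 were called higher and 0 lower in HCC38 (median log2 fold change 0.45), where 3.64% of all tested genes were called. In MDA-MB-231 8 were higher and 1 lower (median 0.65), where 12.5% of all genes were called. IFIH1, the sensor MDA5, rose by 1.57 ± 0.12 on the log2 scale in HCC38 and by 2.89 ± 0.12 in MDA-MB-231. DHX58, the sensor LGP2, rose by 1.14 ± 0.19 and 3.29 ± 0.25, from a mean of 0.913 CPM in untreated MDA-MB-231. EIF2AK2, the translation-blocking kinase PKR, rose by 0.87 ± 0.10 and 1.62 ± 0.10, and ADAR, which edits double-stranded RNA, by 0.53 ± 0.07 and 1.24 ± 0.07. For these 4 the difference between the lines was called (adjusted p = 0.000385, 0.00172, 0.00839 and 0.000652 in that order), where 3.51% of the tested genes were called in either direction.

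TLR3, the endosomal sensor, rose by 0.85 and 1.29 on the log2 scale and ZNFX1, a helicase, by 0.87 and 1.06, with no called difference between the lines. ZC3HAV1, the CpG-binding antiviral protein ZAP, was called in HCC38 (0.45, adjusted p = 0.017) and not in MDA-MB-231 (0.27, adjusted p = 0.0974), and TRIM25, a ubiquitin ligase, was called in MDA-MB-231 (0.65, adjusted p = 0.00113) and not in HCC38 (0.37, adjusted p = 0.0807). MAVS, the adaptor of the RIG-I-like sensors, fell by 0.49 in MDA-MB-231 (adjusted p = 0.00126). TARBP2, ILF2, PRKRA and DHX9 passed in neither line, and ZBP1 had too few counts to be tested. RIGI was called in MDA-MB-231 alone (2.91, adjusted p = 0.0043), but its counts are uncertain, since it had 0.042 CPM per FPKM against 1.28 to 7.03 for the OAS genes. Its mean FPKM was higher after IFN-β in both lines, 15.2 and 50.6 in HCC38 and 16.1 and 113 in MDA-MB-231. The call on counts therefore does not show that RIGI responded in MDA-MB-231 only. Of the DNA-sensing pair, CGAS passed in neither line, and STING1 rose in MDA-MB-231 by 0.90 (adjusted p = 0.000385).

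Of 13 listed genes of the interferon receptor and ISGF3 pathway, 12 were tested. In HCC38 3 were called higher, against 2.39% of all tested genes, and in MDA-MB-231 6, against 6.46%, with none lower. STAT2, a subunit of ISGF3, rose by 0.69 ± 0.10 and 1.5 ± 0.11 on the log2 scale, and USP18, a negative regulator of the receptor, by 1.70 ± 0.10 and 4.29 ± 0.12. For both the difference between the lines was called, at adjusted p = 0.00816 and 9.95e-08. IRF7, a factor that amplifies interferon production, rose from 6.34 to 88.8 CPM in MDA-MB-231 and was listed at 0 in all 6 HCC38 libraries. SOCS1, an inhibitor of JAK signalling, rose in MDA-MB-231 by 1.88 (adjusted p = 0.00997) to only 0.781 CPM, and IRF9, also called there, had 0.040 CPM per FPKM and is as uncertain as RIGI. The receptor chains IFNAR1 and IFNAR2 and the kinases JAK1 and TYK2 were not called in either line.

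The OAS genes were also set beside 21 other antiviral effectors. This list, like the others, was chosen with earlier results of these data known, so its counts are not independent support. All 21 were called higher in HCC38, with a median log2 fold change of 1.85, where 2.39% of all tested genes were called higher. In MDA-MB-231 20 were, with a median of 2.71, against 6.46% of all tested genes. The synthetases' 2.05, 2.18 and 1.66 in HCC38 lay near the first of these medians, and their 8.07, 6.67 and 4.63 lay above the second, while OASL lay below both. In MDA-MB-231 the effectors with the largest rise were IFI27 (9.35), IFI44L (8.04), IFITM1 (7.65), BST2 (6.87), MX1 (6.87) and IFI6 (6.5). The exception was CMPK2, with 0 counts in the untreated MDA-MB-231 libraries and a mean of 0.0083 CPM in the treated ones, against 2.98 and 28.5 CPM in HCC38. The difference between the lines was called for 12 of the 21, all as larger in MDA-MB-231, where 1.99% of all tested genes were. Of 7 reference genes, none was called in HCC38, where 3.64% of all tested genes were. In MDA-MB-231, where 12.5% were, 1 was called higher (GUSB, 0.27) and 2 lower (GAPDH, -0.29; PPIA, -0.29).

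**Figure D4:**
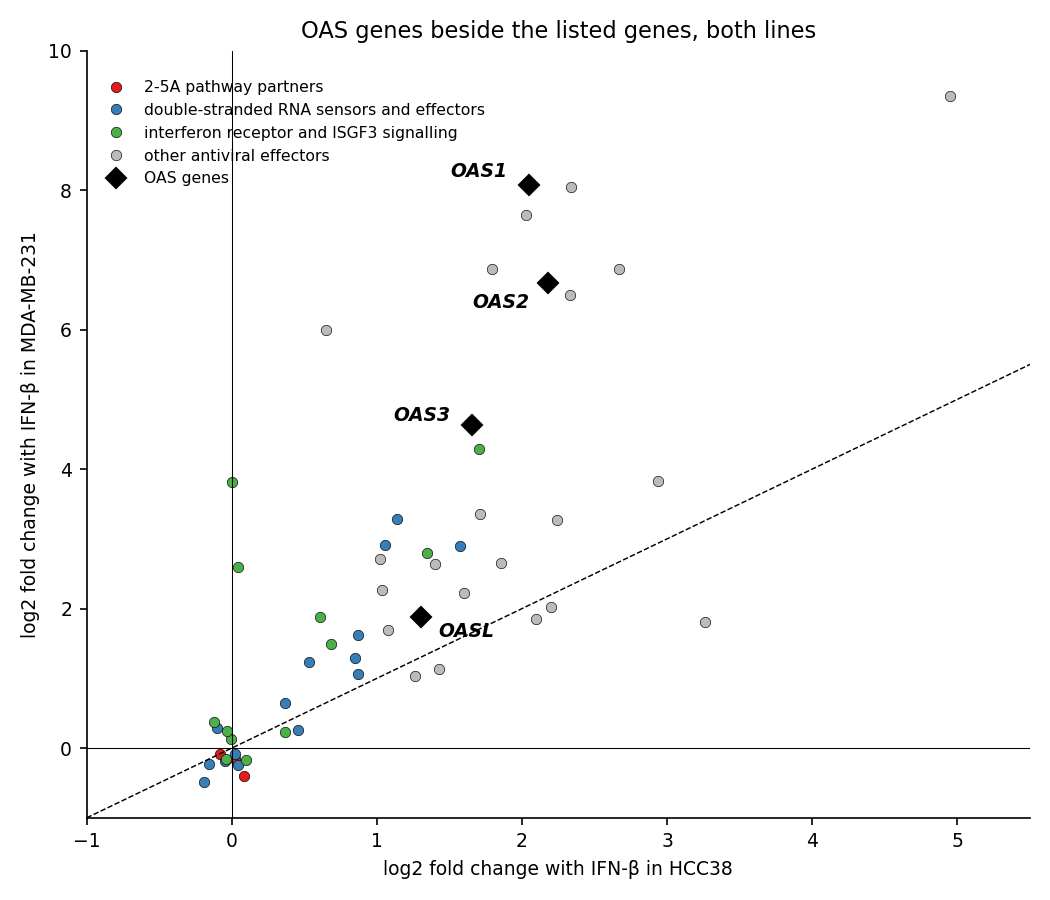
Log2 fold change with IFN-β in HCC38 (x axis) and MDA-MB-231 (y axis) for the tested genes of 4 lists (circles) and the OAS genes (diamonds); the dashed line marks equal change. OAS1, OAS2 and OAS3 lie far above the line and OASL close to it; the green point at 0 in HCC38 and 3.82 in MDA-MB-231 is IRF7, which had no counts in HCC38.

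The profile of each gene over the 12 libraries was compared with that of every tested gene by the Pearson correlation of log2 CPM. The 12 points fall in 4 groups of 3, so this describes likeness over groups and carries no test. The 5 genes most like OAS1 were OAS3 (r = 0.995), UBE2L6 (0.994), HSH2D (0.994), IFI44L (0.994) and IFI6 (0.993). For OAS2 they were IFI44L (0.998), OAS1 (0.990), EPSTI1 (0.989), OAS3 (0.988) and TRIM22 (0.987), and for OAS3 UBE2L6 (0.998), OAS1 (0.995), IFI6 (0.994), HSH2D (0.994) and PARP9 (0.992). The catalytic members were thus among each other's closest genes, except that OAS2 was at place 14 for OAS3 and place 7 for OAS1. OASL had IFI44 (0.970), SECTM1 (0.965), DDX60 (0.963), TMC5 (0.963) and PNPT1 (0.963) nearest, and its correlation with OAS1, OAS2 and OAS3 was 0.894, 0.907 and 0.920, at places 119, 83 and 63.

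The genes around the OAS loci were read against the shares called over all tested genes, 3.64% in HCC38 and 12.5% in MDA-MB-231. Of the 10 tested genes nearest the OAS1-OAS3-OAS2 cluster, at most 797 kb away, 0 were called higher and 1 lower in HCC38 (RPL6, a ribosomal protein, -0.38). In MDA-MB-231 2 were called higher, TRAFD1 (0.36) and HECTD4 (0.30), and 2 lower, RPL6 (-0.72) and PTPN11 (-0.47). Of the 10 nearest OASL, none was called in HCC38, and MLEC (-0.84) and UNC119B (-0.78) were called lower in MDA-MB-231. The difference of the responses between the lines was called for none of the 20, where 3.51% of all tested genes were. A count of 0 among 20 is near that share. DTX1 and RASAL1 had 0 counts in every MDA-MB-231 library, so neither a response there nor a difference could be called for them. P2RX7 had at most 3 counts in any MDA-MB-231 library. The gene ENSG00000257452, whose locus overlaps the cluster, had at most 1 count in any library.

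Few stretches of transcript are shared between the family members. Of the 31-base words in the transcripts, 3.54% of those of OAS1, 0.299% of OAS2, 1.96% of OAS3 and 0.700% of OASL also occur in another gene, and only 1 word of OAS1 and 1 of OASL occur in another OAS gene. Counts and FPKM moved together, with 1.28 to 1.72 CPM per FPKM for OAS1, 2.90 to 4.07 for OAS2, 5.88 to 7.03 for OAS3 and 1.54 to 1.87 for OASL over the 12 libraries. For OAS2 the ratio was 2.90 to 3.45 in untreated MDA-MB-231 and 3.94 to 4.07 in treated HCC38.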

How the data were processed

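RNA was extracted with RNeasy columns and libraries were made with a directional NEBNext Ultra II kit, per the labels' protocols. The authors deposited raw gene counts and, separately, FPKM values scaled by transcript length and depth. Tools listed in the submitters' processing notes are Cufflinks 2.2.1, HTSeq 2.0.2 and fastp 0.23.2, with the build GRCh38.p13. No aligner, annotation release or strand setting is given in the sources used here. The labels call the replicates biological but do not say whether they are separate cultures, so p-values measure the spread between these libraries. Of the 61552 genes, 20495 have no symbol.

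Counts were tested with edgeR 4.0.16 (R 4.3.3) by the quasi-likelihood test with TMM factors (0.947 to 1.03), filterByExpr at a minimum count of 10 (18121 genes) and 1 coefficient per group over all 12 libraries. P-values were adjusted by Benjamini-Hochberg over all tested genes. Standard errors are the absolute log2 fold change divided by the square root of F. The procedure was tested on simulated data. Alternatives were DESeq2 1.42.0, limma 3.58.1 (voom, or log2(FPKM + 1) and log2(FPKM + 0.1) for genes with mean FPKM above 0.1), other scalings and filters, a set term, a replicate block and leaving out each library. Untreated and treated libraries with the same replicate number in the titles were not paired: their deviations correlated at 0.036, -0.12 and 0.024 in HCC38 and 0.27, -0.26 and 0.25 in MDA-MB-231. By the deposited names, MDA-MB-231 shares only the numbers 1 (0.27) and 4 (untreated replicate 3 with treated replicate 2, 0.38). All pairs within an MDA-MB-231 set correlated positively (0.27, 0.32, 0.38 and 0.25). All pairs across the sets correlated negatively (-0.22, -0.14, -0.26, -0.17 and -0.47). Deviations from a group mean sum to 0, so these values are not independent. The sets are split unequally between the treatments, and the fit as reported has no set term.

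The members and gene lists were chosen with earlier results of these data known. Of the listed genes, those of the 2-5A, double-stranded RNA and DNA-sensing lists are named whatever their p, and of the others up to 6 called genes with the largest change. The neighbours are the 5 tested genes on each side, and the likeness lists hold the 5 highest correlations. Exceptions named after their values were seen are CMPK2, the receptor chains and kinases, the reference genes and the marker genes. Some genes that these rules would name are not reported here. Exon counts and coding lengths come from GENCODE 29.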

Additional observations from a re-analysis of the deposited data

Results flagged for a closer look

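The size of the IFN-β response differed between the 2 lines for 3 of the 4 OAS genes, by the test of the difference itself (edgeR's quasi-likelihood test of the line-by-treatment term, Benjamini-Hochberg adjustment over 18121 genes). The log2 fold change in MDA-MB-231 exceeded that in HCC38 by 6.02 for OAS1 (adjusted p = 1.51e-12), by 4.49 for OAS2 (adjusted p = 2.09e-06) and by 2.97 for OAS3 (adjusted p = 1.7e-09). Every treated library of both lines was above every untreated library of its line for each of these genes. How many of all tested genes separate in this way was not counted. The lines also differed in their medium, so the part of each cannot be told apart.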

How the results depend on the processing

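Of the repeated tests of the 4 genes, 449 kept their side of the threshold, 12 gained a call, 7 lost one and 0 changed direction. OAS1, OAS2 and OAS3 kept their calls for IFN-β in each line, for the difference between the lines and for the untreated lines in every setting run, as did OASL except for the difference, and OAS1 and OASL also for the treated lines. OASL's difference between the lines passed with no filter on low counts (0.57, adjusted p = 0.00256) and with the first MDA-MB-231 set alone (0.65). OAS2 between the treated lines passed with no filter (0.39), limma-voom (0.39), log2(FPKM + 1) (0.53), only the 6 libraries compared (0.37), the set term (0.28) and the second set alone (0.51). OAS3 between the treated lines did not pass with library totals (-0.19), log2(FPKM + 1) (-0.083), log2(FPKM + 0.1) (-0.084) or the second set alone (-0.13). On log2(FPKM + 1), OAS1 was 6.97 in MDA-MB-231, 4.88 for the difference and -4.51 between the untreated lines. With no filter, the calls gained by OASL and OAS2 came with smaller SEs and nearly the same log2 values. The SE was 0.14 against 0.32 as reported for the OASL difference, and 0.09 against 0.22 for OAS2 between the treated lines. The cause of these changes between settings was not tested.

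With the replicate block, which the numbers do not support, no call of the 4 genes changed: OAS1 rose by 2.05 in HCC38 and 8.08 in MDA-MB-231, and 632 and 2152 genes were called.

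The number of genes called in HCC38 (659) became 1131 with no filter, 1165 with DESeq2, 429 and 295 with log2(FPKM + 1) and log2(FPKM + 0.1), 1959 with only the 6 libraries compared and 1913 with the set term. In MDA-MB-231 (2272) it became 1168 and 1134 on the FPKM scales, 1035 with the 6 libraries, 4096 with the set term and 1069 with the first set alone. For the difference (636) it became 1254 with no filter, 1338 with DESeq2, 245 and 198 on the FPKM scales, 2217 with the set term and 2353 with the second set alone.

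Taken from CPM in place of FPKM, the shares changed in HCC38 and MDA-MB-231 by 2.05 and 14.1 points for OAS1, 6.66 and 27.0 for OAS2, -4.13 and -5.89 for OAS3, and -4.57 and -35.1 for OASL. The OAS3 share in MDA-MB-231 turned upward without untreated replicate 1 (1.70) or 2 (0.147).

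Leaving out each library in turn, the log2 fold change in HCC38 was OAS1 2.05 to 2.06, OAS2 2.14 to 2.21, OAS3 1.63 to 1.69 and OASL 1.26 to 1.35, with 340 to 1042 genes called. In MDA-MB-231 it gave OAS1 7.97 to 8.13, OAS2 6.38 to 7.26, OAS3 4.58 to 4.72 and OASL 1.68 to 2.34, with 1168 to 3260 genes called. For the difference it gave OAS1 5.92 to 6.08, OAS2 4.20 to 5.08, OAS3 2.91 to 3.06 and OASL 0.37 to 1.03, with 294 to 1466 genes called. Between the untreated lines it gave OAS1 -5.68 to -5.52, OAS2 -4.68 to -3.80, OAS3 -3.22 to -3.17 and OASL -2.10 to -1.44, with 13236 to 14233 genes called. Between the treated lines it gave OAS1 0.35 to 0.46, OAS2 0.33 to 0.52, OAS3 -0.28 to -0.12 and OASL -1.17 to -0.91, with 13086 to 14242 genes called. The share changes in HCC38 ran from 5.86 to 6.86 for OAS1, 4.88 to 5.73 for OAS2, -2.74 to -1.99 for OAS3 and -10.2 to -8.52 points for OASL. The share changes in MDA-MB-231 ran from 31.9 to 33.5 for OAS1, 22.0 to 24.6 for OAS2, -4.67 to 1.7 for OAS3 and -58.3 to -52.2 points for OASL.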
